A study of Pyrus pyrifolia with 12 samples.

Results

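The skin of Pyrus pyrifolia fruit, the Asian pear, was compared between the varieties Akibae and SuCui NO.1. Each variety gave 3 RNA sequencing libraries, 6 of the 12 libraries of a study of russet formation that also covers Nijisseiki and CuiYu. The libraries were chosen by their variety label, and all genes were considered: 43732 were listed with raw counts and 26307 had enough reads to be tested. Akibae fruits were picked 120 days after full bloom, and SuCui NO.1 fruits 105 days after full bloom. Both were mature, untreated fruits from Yizheng in Jiangsu, with biological replicates numbered 1 to 3. Variety and picking day go together in this comparison and cannot be told apart. The sources used here do not state the skin type of the 2 varieties.

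A smooth pear skin is covered by a cuticle, which epidermal cells build from waxes and from the polyester cutin. In russet skin, cork cells whose walls hold suberin and lignin take the place of that surface. Cutin and suberin are built from long-chain fatty acids, and suberin and lignin draw on phenylpropanoids as well. The waxy layer of pear and apple skin holds triterpene acids as well, and green skin contains chloroplasts.

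The 6 libraries held between 11981445 and 13492741 counts. Levels are given as CPM, the share of a library's counts scaled by TMM, and 3 reads over the 3 libraries of a variety are worth 0.0772 CPM in Akibae and 0.0763 CPM in SuCui NO.1. Between 2 libraries of the same variety, 8 to 44 genes were at 10 CPM or more in 1 library and under 0.5 CPM in the other, against 230 to 340 genes between an Akibae and a SuCui NO.1 library. SuCui NO.1 replicate 2 stood apart from the other two SuCui NO.1 libraries in suberin and triterpene genes, and the results on both groups are given with and without it. The 50 most counted genes took 17.1% of the counts in SuCui NO.1 replicate 1 and 8.60% to 13.4% in the other 5 libraries.

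Markers of cell types were read beside the gene groups. Of 25 tested epidermis markers, 13 were lower and 0 higher in Akibae at an adjusted p under 0.05. Over all tested genes 8.66% were lower and 7.62% higher. The summed level of the epidermis markers was 422 to 768 CPM in Akibae, against 1417 to 2787 CPM in SuCui NO.1. Among these markers, 4 had no read in any Akibae library, and 8 of the 13 lower ones belong to the wax list described next. Markers of chloroplast-rich cells summed to 462 to 982 CPM in Akibae and to 1284 to 3012 CPM in SuCui NO.1, with 2 higher and 17 lower of 58. The ranges overlapped for phloem cells (46.3 to 120 CPM in Akibae, 50.8 to 203 CPM in SuCui NO.1), xylem cells (10.4 to 30.3 CPM in Akibae, 4.27 to 13 CPM in SuCui NO.1), guard cells (10.4 to 22.4 CPM in Akibae, 2.51 to 16.2 CPM in SuCui NO.1) and dividing cells (2117 to 2541 CPM in Akibae, 1851 to 2335 CPM in SuCui NO.1). At the same threshold, 1 of 7 phloem markers was lower, 1 of 7 xylem markers was higher and 0 of 2 guard cell markers differed. Of 61 dividing cell markers, 2 were higher and 2 lower. In whole skin, fewer cells of a type and less RNA per cell cannot be told apart, and the part of cell makeup in the results below was not tested.

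Of the genes tested, 4282 (16.3%) differed between Akibae and SuCui NO.1 at an adjusted p under 0.05. In Akibae 2004 genes (7.62%) were higher, at a median log2 fold change of 2.05, and 2278 genes (8.66%) were lower, with a median of -2.36. Over all tested genes the median log2 fold change was -0.02. The libraries of the 2 varieties did not overlap for 1969 of the higher and 2223 of the lower genes, while 33.2% of all tested genes did not overlap. Without Akibae replicate 1 the counts were 1181 higher and 1259 lower, and without Akibae replicate 2 they were 1261 higher and 1269 lower. No gene called with all libraries changed its sign when any 1 of the 6 libraries was left out.

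**Figure D1:**
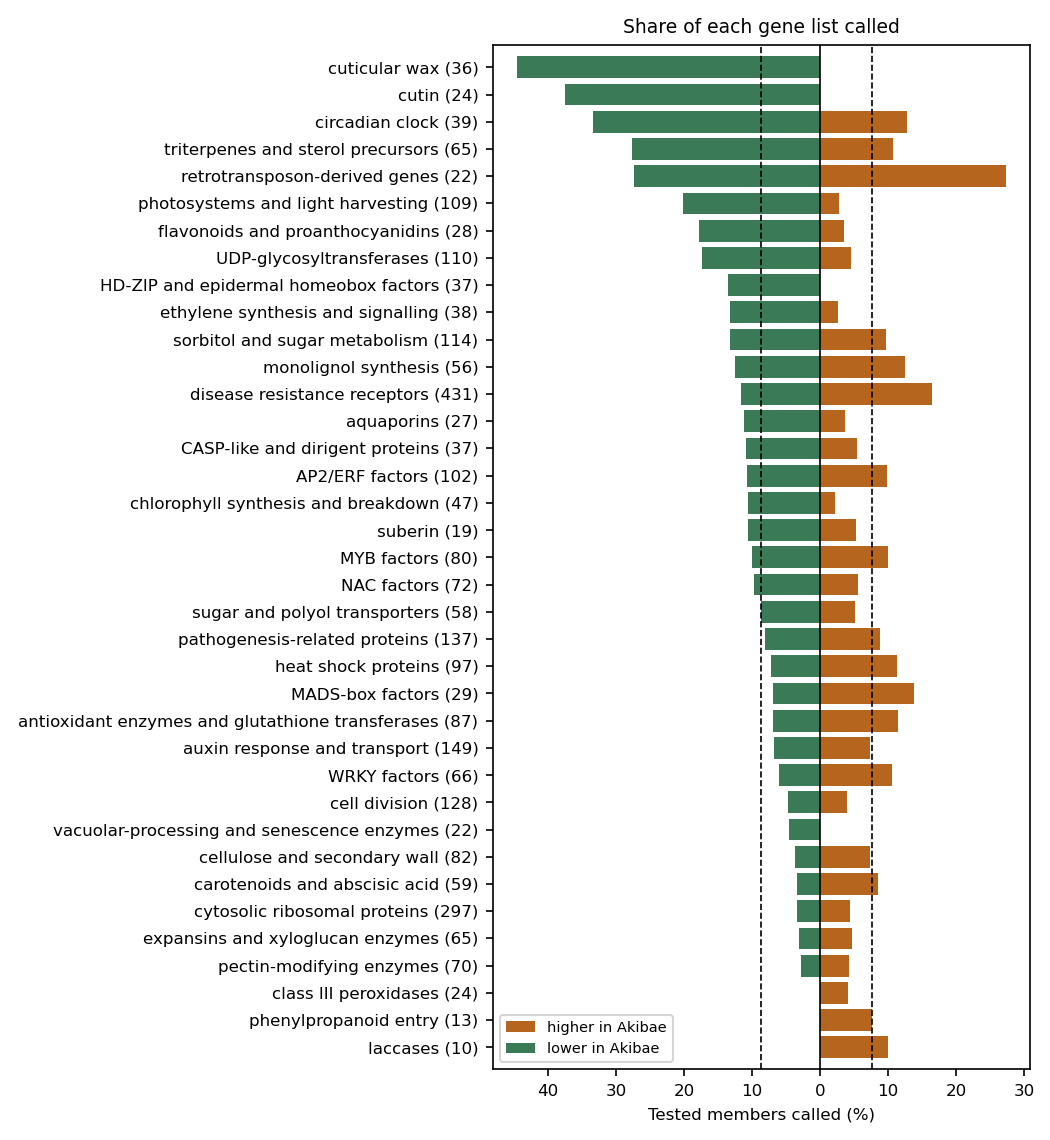
Share of the tested members of each gene list called higher in Akibae (right, brown) and lower in Akibae (left, green) than in SuCui NO.1, in percent, for the 37 lists with at least 10 tested members, whose number is in brackets. Dashed lines mark the shares over all tested genes, 7.62% higher and 8.66% lower; wax, cutin and clock genes have the longest bars to the left.

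Wax genes were lower in Akibae. Of 36 tested wax genes, 16 (44.4%) were lower and 0 higher, and the median log2 fold change was -1.27, against 8.66% lower and a median of -0.02 over all genes. Their summed level was 391, 402 and 432 CPM in the Akibae libraries, against 982, 865 and 846 CPM in the SuCui NO.1 libraries. The lowest SuCui NO.1 library thus lay above every Akibae library. Without an adjustment, 2 wax genes had a p under 0.05 on the higher side, and DESeq2 called 2 higher. Leaving out SuCui NO.1 replicate 2 gave 1 higher. Of the 16 lower genes, 11 were called without any 1 of the 6 libraries.

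The strongest wax differences were in the enzymes that lengthen fatty acids. KCS6 (gene8119, chromosome 13, 1079692 to 1081349), the condensing enzyme of wax synthesis in Arabidopsis, had 0, 0 and 0.225 CPM in Akibae, against 36.4, 23.6 and 30.6 CPM in SuCui NO.1. The SuCui NO.1 level was 388 times that of Akibae, with a 95% counting interval of 132 to 1882 (edgeR adjusted p = 0.00167). KCS10 (gene1422, chromosome 15, 3170778 to 3174131), a synthase named for fused organs in its Arabidopsis mutant, had 0.0771, 0 and 0.150 CPM in Akibae and 37.2, 15.5 and 31.6 CPM in SuCui NO.1. Its ratio of SuCui NO.1 to Akibae was 360, with an interval of 123 to 1747. Another KCS10 gene (gene10410) had 0.231, 0.160 and 3.0 CPM in Akibae, against 209.6, 149.6 and 90.7 CPM in SuCui NO.1, a log2 fold change of -7.03 ± 1.07 (SE, adjusted p = 0.00157). Its groups were far apart in all libraries. Another KCS6 gene of chromosome 13 (gene8122) had no read in Akibae and 3.68, 0.892 and 3.16 CPM in SuCui NO.1, at least 33.4-fold lower in Akibae, and its adjusted p was 0.0508 without Akibae replicate 1.

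Genes for later steps of wax synthesis and export moved the same way. Of 6 tested genes of the ECERIFERUM 1 name, known for alkane synthesis in Arabidopsis, 5 were lower: gene30160 had 0, 0 and 0.900 CPM in Akibae, against 18.6, 20.9 and 9.90 CPM in SuCui NO.1. An ECERIFERUM 26-like gene (gene26110), of a family that acts with the condensing enzymes, had 0, 0 and 0.0750 CPM in Akibae and 8.03, 8.33 and 7.32 CPM in SuCui NO.1. The GPI-anchored lipid transfer protein 1 gene (gene21123), known for wax export in Arabidopsis, had no read in Akibae and 1.76, 2.60 and 3.3 CPM in SuCui NO.1. These genes were called without any 1 of the 6 libraries, and their groups did not overlap. Of the wax ester synthases of the WSD1 name, gene29338 had 0.694, 0.399 and 3.83 CPM in Akibae, against 36.6, 30.8 and 22.7 CPM in SuCui NO.1, while gene41249 had 96.2, 94.2 and 104 CPM in Akibae and 68.3, 99.8 and 76 CPM in SuCui NO.1 and was not called. The call of gene29338 ended without Akibae replicate 1, at an adjusted p of 0.0541. The wax genes of this and the previous paragraph other than gene8119, gene1422 and gene8122 were chosen after their values were seen.

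Cutin genes were lower too. Of 24 tested, 9 (37.5%) were lower and 0 higher, against 8.66% and 7.62% over all genes. The median log2 fold change was -1.61, and 7 of the 9 were called without any 1 library. On the higher side, 1 had an unadjusted p under 0.05, and DESeq2 called 1. CYP86A22 (gene23333, chromosome 6, 9002661 to 9005054), a fatty acid hydroxylase known from petunia, had 0, 0.0798 and 0 CPM in Akibae, against 44.6, 67.4 and 32.2 CPM in SuCui NO.1. This was a single read in Akibae, and the ratio of SuCui NO.1 to Akibae was 1864 with an interval of 334 to 73652 (adjusted p = 5.19e-05). HOTHEAD (gene25700, chromosome 4, 16032258 to 16037916), which oxidises hydroxy fatty acids in the Arabidopsis epidermis, had 0, 0 and 0.300 CPM in Akibae and 31.2, 33.8 and 13.7 CPM in SuCui NO.1. Its log2 fold change was -7.87 ± 1.05 (SE, adjusted p = 0.000713).

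The factor SHINE 2 (gene7700, chromosome 15, 8688282 to 8689536), of a family that activates cuticle genes in Arabidopsis, had 0, 0.319 and 0.525 CPM in Akibae, against 2.09, 10.3 and 2.58 CPM in SuCui NO.1. Its log2 fold change was -4.10 ± 0.90 (SE, adjusted p = 0.0109), and it was called without any 1 library. Enzymes that join cutin monomers had smaller differences: GPAT6 (gene19410) had 2.70, 1.84 and 1.88 CPM in Akibae and 15.9, 14.9 and 6.82 CPM in SuCui NO.1, and the acyltransferase DCR (gene32423) had 1.85, 1.117 and 2.55 CPM in Akibae and 9.54, 23.0 and 8.39 CPM in SuCui NO.1. ABCG32 (gene20409), a transporter of cutin precursors, had 6.24, 5.90 and 3.38 CPM in Akibae, against 20.3, 31.7 and 17.1 CPM in SuCui NO.1. LACS1 (gene13555), which activates fatty acids for both wax and cutin, had 19.1, 20.5 and 25.1 CPM in Akibae and 114, 90.7 and 57.7 CPM in SuCui NO.1. These 4 log2 fold changes lay between -2.88 and -2.02, and none of the groups overlapped. GPAT6, DCR, ABCG32 and LACS1 were chosen after their values were seen. The whole list summed to 324, 271 and 279 CPM in Akibae, against 615, 647 and 369 CPM in SuCui NO.1.

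Epidermal transport proteins and homeobox factors were read with the cuticle genes. The lipid transfer protein gene38249 (chromosome 4, 1684320 to 1685206), of a family of abundant lipid-binding proteins of the outer cell wall, had 17.2, 59.7 and 84.5 CPM in Akibae, against 1702, 1457 and 689 CPM in SuCui NO.1. Its log2 fold change was -4.58 ± 0.98 (SE, adjusted p = 0.00991), and the groups were far apart. All 4 tested genes of its name were lower and were called without any 1 library. PROTODERMAL FACTOR 2 (gene187, chromosome 5, 25803113 to 25808392), which holds epidermal identity in Arabidopsis, had no read in Akibae and 3.01, 1.93 and 2.08 CPM in SuCui NO.1, at least 30.3-fold lower in Akibae (adjusted p = 0.000532). Of 37 tested HD-ZIP and epidermal homeobox genes, 5 (13.5%) were lower and 0 higher, against 8.66% and 7.62% over all genes. But 7 had an unadjusted p under 0.05 on the higher side, DESeq2 called 4 higher and the median log2 fold change was 0.24. Leaving out Akibae replicate 2 left 2 lower, Akibae replicate 1 left 3, Akibae replicate 3 gave 8, and SuCui NO.1 replicate 3 gave 1 higher.

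**Figure D2:**
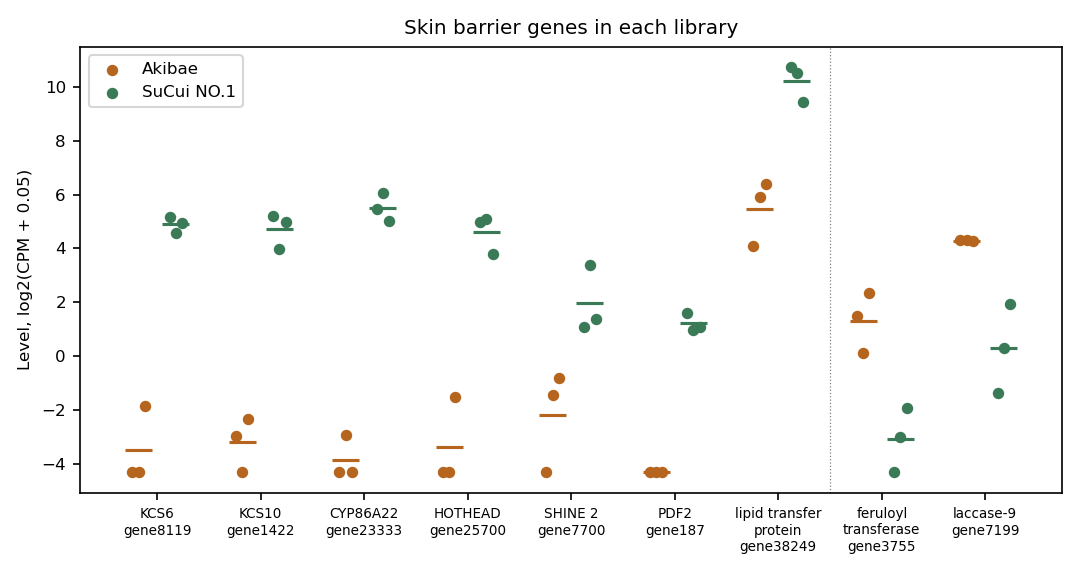
Level of 9 skin barrier genes in each library, as log2 of CPM plus 0.05, in Akibae (brown, left of each pair) and SuCui NO.1 (green, right); lines are means of 3 libraries. The 7 wax, cutin and epidermis genes left of the dotted line are lower in every Akibae library than in every SuCui NO.1 library, and the feruloyl transferase and laccase-9 to the right of it are higher.

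Suberin genes did not follow the cuticle genes. Of 19 tested, 1 (5.26%) was higher and 2 (10.5%) were lower in Akibae, against 7.62% and 8.66% over all genes. The median log2 fold change was 1.34, and 15 of the 19 had a positive one. The median level over members was 13.8, 12.2 and 11.9 CPM in Akibae, against 1.63, 16.8 and 0.933 CPM in SuCui NO.1. By this median SuCui NO.1 replicate 2 was near or above the Akibae level, and the other SuCui NO.1 libraries were far below it. The summed level was 390, 309 and 332 CPM in Akibae, against 364, 504 and 174 CPM in SuCui NO.1. By the sum, SuCui NO.1 replicate 1 lay within the Akibae range and replicate 2 above it. Replicate 2 was singled out by these same genes, so the counts without it are a description only. Without SuCui NO.1 replicate 2, 7 suberin genes were higher and 1 lower; 1 was lower without Akibae replicate 1 or 3, and 0 without Akibae replicate 2. The 7 included CYP86A1 (gene22741), which makes suberin hydroxy acids in Arabidopsis, with 21.1, 12.6 and 11.3 CPM in Akibae and 1.42, 15.9 and 0.359 CPM in SuCui NO.1. Its adjusted p was 0.480 with all libraries and 0.0461 without that one. GPAT5 (gene3597), a suberin acyltransferase, had 13.9, 11.7 and 9.38 CPM in Akibae and 1.0, 10.5 and 0.287 CPM in SuCui NO.1, and missed the threshold both ways, at 0.410 and 0.0504. CYP86A1 and GPAT5 were chosen after their values were seen.

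The suberin gene called higher in Akibae was an omega-hydroxypalmitate O-feruloyl transferase (gene3755, chromosome 1, 6637810 to 6639402), of the enzyme class that adds ferulate to suberin. It had 2.77, 1.04 and 5.03 CPM in Akibae, against 0, 0.0743 and 0.215 CPM in SuCui NO.1, a log2 fold change of 4.76 ± 1.06 (SE, adjusted p = 0.0120). It was called without any 1 library and dropped below a filter of 1 CPM on the mean. More abundant genes of the same name were not called: gene38152 had 45.2, 39.1 and 24.2 CPM in Akibae and 3.93, 32.4 and 3.08 CPM in SuCui NO.1. KCS20 (gene40020), a condensing enzyme of suberin in Arabidopsis roots, was lower, with 41.0, 35.2 and 32.9 CPM in Akibae and 208, 112 and 82.6 CPM in SuCui NO.1 and a log2 fold change of -1.88 ± 0.43 (SE, adjusted p = 0.0132). Its adjusted p was 0.0530 without Akibae replicate 2. ABCG6 (gene29115), a suberin transporter, was lower as well, with 0.154, 0 and 0.150 CPM in Akibae and 2.76, 8.18 and 2.15 CPM in SuCui NO.1, but not without Akibae replicates 1, 2 or 3 or SuCui NO.1 replicate 2 (adjusted p 0.0590 to 0.0817). The 3 tested genes of the ABCG6 name summed to a mean of 51.3 CPM in Akibae and 18.6 CPM in SuCui NO.1. Gene38152 was chosen after its values were seen.

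Laccases and peroxidases, which couple lignin monomers, showed 1 call each. This was 10% of the 10 tested laccases and 4.17% of the 24 tested peroxidases, against 16.3% called over all genes. Laccase-9 (gene7199, chromosome 2, 17761057 to 17769678) had 19.7, 19.6 and 19.4 CPM in Akibae, against 0.335, 1.19 and 3.8 CPM in SuCui NO.1. The log2 fold change was 3.44 ± 0.70 (SE, adjusted p = 0.00732), and the gene was called without any 1 library. It was the only one of 10 tested laccases called, and the list had a median log2 fold change of 1.06. Laccase-5 (gene18582), chosen after its values were seen, had 21.7, 19.9 and 12.3 CPM in Akibae and 1.84, 18.7 and 0.646 CPM in SuCui NO.1, with replicate 2 again near the Akibae level. Peroxidase 45 (gene38339) had 5.01, 2.55 and 9.75 CPM in Akibae, against 0.251, 0 and 0.215 CPM in SuCui NO.1, at a log2 fold change of 5.15 ± 1.14 (SE, adjusted p = 0.0117), and was the only one of 24 tested peroxidases called. Leaving out SuCui NO.1 replicate 2 gave 2 laccases higher, and leaving out SuCui NO.1 replicate 3 gave 1 lower. DESeq2 called 4 peroxidases higher and 1 lower; 2 were higher without Akibae replicate 3 or SuCui NO.1 replicate 3, and 1 was lower without Akibae replicate 3.

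**Figure D3:**
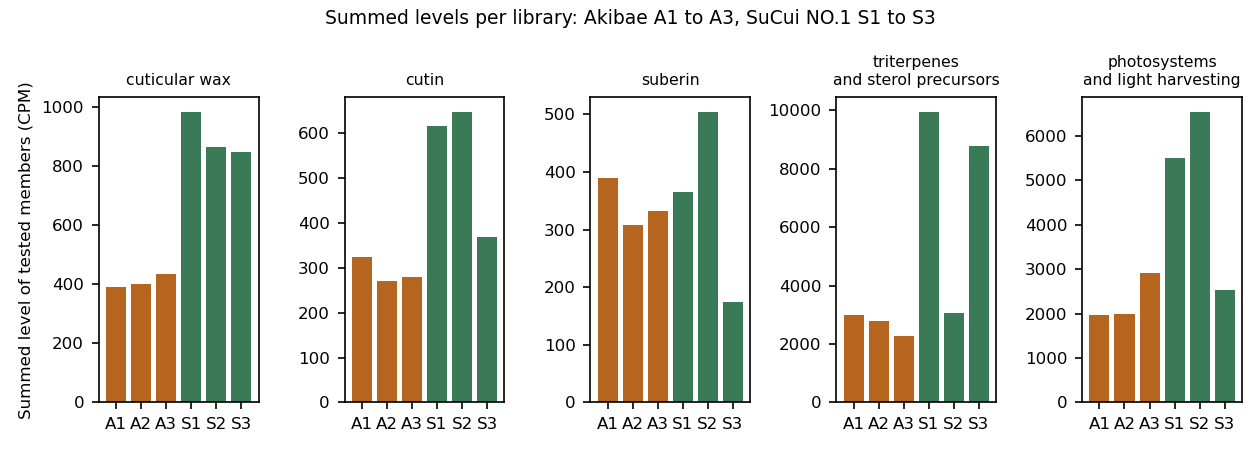
Summed level in CPM of the tested members of 5 gene lists in each library, Akibae 1 to 3 (A1 to A3, brown) and SuCui NO.1 1 to 3 (S1 to S3, green). Wax genes are lower in all 3 Akibae libraries (391 to 432 CPM, against 846 to 982 CPM); for suberin and photosystem genes 1 or more SuCui NO.1 libraries fall within or below the Akibae range.

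The phenylpropanoid and lignin genes moved in both directions. Of 13 tested genes of the entry steps, 1 (7.69%) was higher, against 7.62% over all genes. This was a 4-coumarate-CoA ligase 2 gene (gene28008), with 3.62, 2.87 and 4.13 CPM in Akibae and no read in SuCui NO.1, at least 46.4-fold higher in Akibae (adjusted p = 0.00145). The 4 tested genes of its name summed to a mean of 49.7 CPM in Akibae and 70.7 CPM in SuCui NO.1. Without SuCui NO.1 replicate 2, 3 genes of these steps were higher and 1 lower. Of 56 tested monolignol genes, 7 (12.5%) were higher and 7 (12.5%) lower, against 7.62% and 8.66% over all genes. Their median log2 fold change was -0.07. CYP84A1 (gene31267), which leads to syringyl lignin, had 0.539, 2.0 and 3.90 CPM in Akibae and no read in SuCui NO.1, at least 28.1-fold higher, or 16.6-fold without Akibae replicate 3. All tested genes of the CYP84A1 name summed to a mean of 4.39 CPM in Akibae and 7.47 CPM in SuCui NO.1. Caffeic acid O-methyltransferase 1 (gene16474), of the same branch, had 0, 0.0798 and 0.150 CPM in Akibae, against 22.5, 4.53 and 6.96 CPM in SuCui NO.1, a ratio of SuCui NO.1 to Akibae of 141 with an interval of 47.8 to 684. Its SuCui NO.1 mean was 11.3 CPM, and 5.75 CPM without replicate 1. Gene28008, gene31267 and gene16474 were called without any 1 library, and the groups did not overlap.

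Cinnamoyl-CoA reductase 1, the first enzyme specific to lignin, had genes called in both directions. Of these, gene18868 had 38.9, 37.6 and 48 CPM in Akibae and 3.77, 10.04 and 6.96 CPM in SuCui NO.1, a log2 fold change of 2.58 ± 0.34 (SE, adjusted p = 0.000676). Gene6480 of the same name had 12.02, 16.8 and 16.5 CPM in Akibae, against 67.0, 50.2 and 108 CPM in SuCui NO.1, a log2 fold change of -2.32 ± 0.42 (SE, adjusted p = 0.00434). Caffeoylshikimate esterase differed likewise: gene950 had 249.5, 229 and 150 CPM in Akibae and 78.7, 82.1 and 99.9 CPM in SuCui NO.1, and gene36949 had 8.86, 6.62 and 8.48 CPM in Akibae and 94.9, 43.1 and 32.1 CPM in SuCui NO.1. All 4 were called without any 1 library, and all 4 were chosen after their values were seen. Without Akibae replicate 3, SuCui NO.1 replicate 1 or SuCui NO.1 replicate 3, 4 monolignol genes were higher in place of 7.

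Flavonoid and flavan-3-ol genes had 6 calls. Of 28 tested, 1 (3.57%) was higher and 5 (17.9%) were lower, against 7.62% and 8.66% over all genes, and the median log2 fold change was -0.43. Anthocyanidin reductase (gene5036, chromosome 6, 11233013 to 11234775), which makes epicatechin for proanthocyanidins, had 0.462, 0.399 and 0.0750 CPM in Akibae, against 23.4, 24.1 and 31.5 CPM in SuCui NO.1. Its log2 fold change was -6.36 ± 0.76 (SE, adjusted p = 0.000365), and 2 further genes with reductase names of this step were lower. Dihydroflavonol 4-reductase, an earlier step, was higher in gene7584, with 131, 115 and 132 CPM in Akibae and 67.4, 40.4 and 30.2 CPM in SuCui NO.1 (log2 fold change 1.46 ± 0.30, SE, adjusted p = 0.00821). A second gene of that name (gene6629), chosen after its values were seen, had no read in Akibae and 1.42, 1.64 and 1.0 CPM in SuCui NO.1. Of the 5 lower genes, 4 were called without any 1 library; the exception was another anthocyanidin reductase gene (gene40075), with an adjusted p of 0.0539 without Akibae replicate 2.

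Genes of the triterpene pathway, which makes the oleanolic and ursolic acids of fruit wax, were lower more often than higher. Of 65 tested triterpene and sterol precursor genes, 18 (27.7%) were lower and 7 (10.8%) higher, against 8.66% and 7.62% over all genes, and the median log2 fold change was -0.49. Their summed level was 2983, 2799 and 2281 CPM in Akibae, against 9942, 3061 and 8790 CPM in SuCui NO.1, so that SuCui NO.1 replicate 2 lay near Akibae. Leaving out a library left 6 lower without Akibae replicate 1, 7 without Akibae replicate 3, 8 without SuCui NO.1 replicate 1 and 11 without Akibae replicate 2. The higher genes were 4 without Akibae replicate 1, 2 or 3, and 3 without SuCui NO.1 replicate 1 or replicate 3. Without SuCui NO.1 replicate 2, which lay near Akibae, 20 were lower and 10 higher. In all, 5 lower and 3 higher genes were called without any 1 library.

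Within the pathway, copies of beta-amyrin synthase, which closes the ring system, went both ways. Gene28354 (chromosome 17, 10196634 to 10201959) had 158, 125.4 and 62.1 CPM in Akibae, against 1565, 418 and 858 CPM in SuCui NO.1, a log2 fold change of -3.04 ± 0.59 (SE, adjusted p = 0.00568). Gene30674 had 87.5, 51.2 and 109 CPM in Akibae, against 0, 0 and 0.861 CPM in SuCui NO.1, a log2 fold change of 8.06 ± 0.86 (SE, adjusted p = 0.000171). Both were called without any 1 library. Of 21 tested genes of this name 5 were higher and 2 lower, and their levels summed to a mean of 644 CPM in Akibae and 1772 CPM in SuCui NO.1. Beta-amyrin 28-oxidase, which carries the product on to oleanolic acid, was lower in all 4 of its tested genes, with a sum of 83.6, 126 and 98.1 CPM in Akibae and 1762, 247 and 1492 CPM in SuCui NO.1. Each of these 4 lost its call in some fit: the largest in level, gene24414, had an adjusted p of 0.0505 without Akibae replicate 1, gene6259 0.0502 to 0.0628 without Akibae replicates 1 or 3, gene41984 0.0607 to 0.0853 without Akibae replicates 1 or 3 or SuCui NO.1 replicate 1, and gene36917 0.0541 to 0.0831 without Akibae replicates 1, 2 or 3 or SuCui NO.1 replicate 1. The oxidase was chosen after its values were seen, apart from gene36917.

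Of 109 tested photosystem and light harvesting genes, 22 (20.2%) were lower in Akibae and 3 higher, against 8.66% lower over all genes. The libraries differed within the varieties. The median log2 fold change was -1.38, and 12 of the 109 had a positive one. Their summed level was 1963, 1990 and 2919 CPM in Akibae, against 5506, 6535 and 2538 CPM in SuCui NO.1, so that SuCui NO.1 replicate 3 lay within the Akibae range. The lower count was 9 without Akibae replicate 1 and 10 without Akibae replicate 2, DESeq2 called 37 lower, and the higher count was 5 without SuCui NO.1 replicate 2. In all, 9 lower and 2 higher genes were called without any 1 library.

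Examples came from light harvesting, carbon fixation and photosystem II. Chlorophyll a-b binding protein 6 (gene25850) had 4.70, 4.07 and 4.5 CPM in Akibae, against 74.1, 93.9 and 66.4 CPM in SuCui NO.1, a log2 fold change of -4.14 ± 0.37 (SE, adjusted p = 5.9e-05). CP26 (gene19797) and CP29.1 (gene25590), which bind chlorophyll beside photosystem II, had 1.92 to 2.70 CPM and 6.38 to 13.9 CPM in Akibae, against 24.6 to 51.2 CPM and 66.6 to 168 CPM in SuCui NO.1. A Rubisco activase gene (gene39096, chromosome 4, 8346071 to 8349017), whose protein keeps the carbon-fixing enzyme active, had no read in Akibae and 119, 15.8 and 7.68 CPM in SuCui NO.1, at least 616-fold lower in Akibae (adjusted p = 0.0093). That bound rested on SuCui NO.1 replicate 1 and was 152-fold without it. A gene for the photosystem II 5 kDa protein (gene41995) went the other way, with 5.32, 5.90 and 11.5 CPM in Akibae and 0, 0.149 and 0 CPM in SuCui NO.1. Its ratio of Akibae to SuCui NO.1 was 150 with a counting interval of 41.1 to 1244. The 4 tested genes of its name summed to a mean of 25.1 CPM in Akibae and 33.7 CPM in SuCui NO.1. Gene25850, gene19797 and gene25590 were chosen after their values were seen.

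Of 47 tested chlorophyll genes, 1 (2.13%) was higher and 5 (10.6%) were lower, against 7.62% and 8.66% over all genes. The lower count was 2 without Akibae replicate 1 or 2, 3 without SuCui NO.1 replicate 1, 9 without Akibae replicate 3 and 8 without SuCui NO.1 replicate 3. A gene for the ChlH subunit of magnesium chelatase (gene33365), the entry to chlorophyll, had 0, 0 and 0.300 CPM in Akibae, against 2.18, 10.9 and 2.73 CPM in SuCui NO.1 (log2 fold change -5.57 ± 1.04, SE, adjusted p = 0.00492). Delta-aminolevulinic acid dehydratase (gene27391), an early step, had 155, 158 and 167 CPM in Akibae, against 94.0, 74.6 and 47.3 CPM in SuCui NO.1 (log2 fold change 1.16 ± 0.24, SE, adjusted p = 0.00807). Both were called without any 1 library. The 3 tested genes of the dehydratase name, 1 higher and 1 lower, summed to a mean of 170 CPM in Akibae and 90.8 CPM in SuCui NO.1.

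Carotenoid and abscisic acid genes gave 5 higher (8.47%) and 2 lower (3.39%) of 59 tested, against 7.62% and 8.66% over all genes, with 3 higher without Akibae replicate 1 or SuCui NO.1 replicate 1. Carotenoid cleavage dioxygenase 1, which cuts carotenoids into volatile compounds, had 2 genes on chromosome 2 that were counted in Akibae and not in SuCui NO.1. Gene15118 had 11.6, 9.42 and 12.8 CPM in Akibae and no read in SuCui NO.1, at least 147-fold higher in Akibae (adjusted p = 0.0126). Gene15120, chosen after its values were seen, had 10.4, 7.58 and 9.23 CPM in Akibae and no read in SuCui NO.1. The 3 tested genes of this name summed to a mean of 259 CPM in Akibae and 187 CPM in SuCui NO.1. Beta-carotene hydroxylase 2 (gene25402, chromosome 1, 3003175 to 3005581), which leads to xanthophylls, had 0.308, 0.239 and 0.0750 CPM in Akibae, against 20.8, 11.9 and 10.3 CPM in SuCui NO.1, a log2 fold change of -6.05 ± 0.71 (SE, adjusted p = 0.000306). The 5 tested genes of its name summed to a mean of 98.5 CPM in Akibae and 94.8 CPM in SuCui NO.1.

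Circadian clock genes were among the lists with many calls. Of 39 tested, 13 (33.3%) were lower and 5 (12.8%) higher, against 8.66% and 7.62% over all genes. The median log2 fold change was -0.09. The sources used here do not state the time of day of picking, and its part in these differences was not tested. Of the 13 lower genes, 7 were called without any 1 library, and 7 in all were called without Akibae replicate 2. The 5 higher ones fell to 1 without Akibae replicate 1, 3 without Akibae replicate 3 and 2 without SuCui NO.1 replicate 1 or replicate 3.

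All 5 called genes of pseudo-response regulators, daytime repressors of the clock in Arabidopsis, were lower. APRR7 made up 3 of them: gene31179 had 2.31, 1.28 and 1.13 CPM in Akibae, against 16.5, 12.3 and 35.0 CPM in SuCui NO.1. APRR5 (gene4680) had 37.4, 26.7 and 40.3 CPM in Akibae, against 218, 218 and 115 CPM in SuCui NO.1, a log2 fold change of -2.40 ± 0.38 (SE, adjusted p = 0.00179). LNK2 (gene12693), a partner of the REVEILLE activators, had 4.70, 2.31 and 2.55 CPM in Akibae and 71.1, 28.4 and 59.8 CPM in SuCui NO.1. The groups were separate for each of these genes. REVEILLE 6 (gene25408, chromosome 1, 2976473 to 2979661) had 0.154, 0 and 0.525 CPM in Akibae, against 6.03, 4.24 and 3.87 CPM in SuCui NO.1 (log2 fold change -4.31 ± 0.83, SE, adjusted p = 0.00578). The 4 tested genes of its name, 1 higher and 1 lower, summed to a mean of 51.3 CPM in Akibae and 40.7 CPM in SuCui NO.1. REVEILLE 1 (gene16896, chromosome 9, 416220 to 419397), which links the clock to auxin in Arabidopsis, had 11.9, 13 and 35.0 CPM in Akibae, against 3.01, 5.5 and 4.88 CPM in SuCui NO.1 (log2 fold change 2.16 ± 0.46, SE, adjusted p = 0.0101). In Nijisseiki against CuiYu its log2 fold change was -1.94, and the difference between both fold changes was 4.09 (adjusted p = 0.00337). GIGANTEA (gene29553) had 24.3, 12.3 and 10.4 CPM in Akibae and 106, 51.9 and 167 CPM in SuCui NO.1, but its call ended without Akibae replicate 2 or 3 (adjusted p 0.0581 to 0.0702). The examples other than both REVEILLE genes were chosen after their values were seen.

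**Figure D4:**
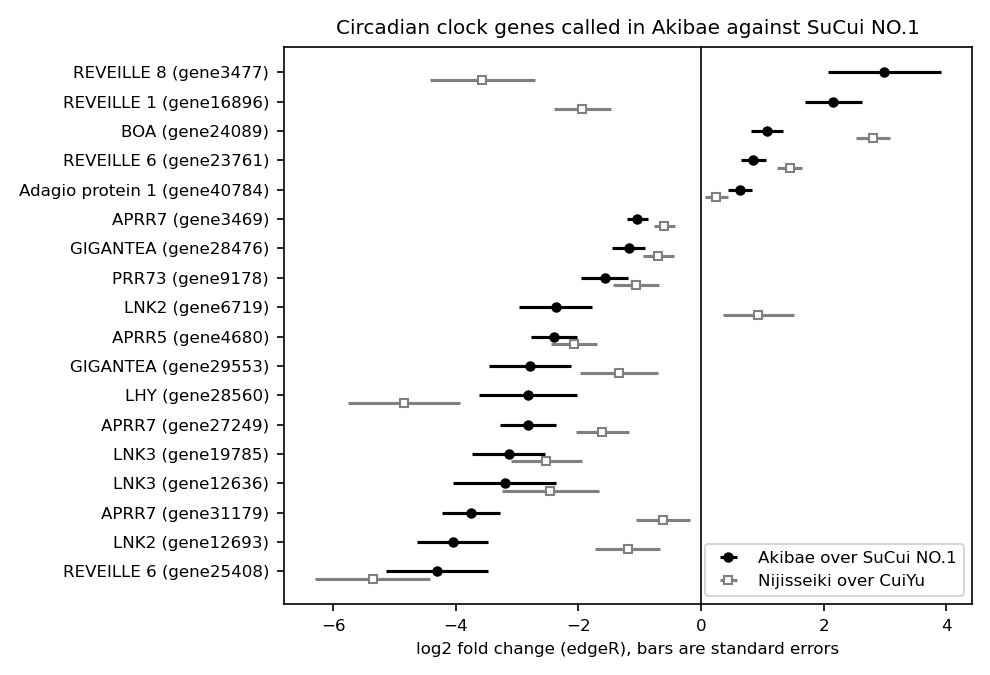
Log2 fold change of the 18 clock genes called in Akibae over SuCui NO.1 (filled circles), with that of Nijisseiki over CuiYu (open squares) for the same genes; bars are standard errors. For Akibae over SuCui NO.1, 13 genes lie left of 0 and 5 right of it; REVEILLE 1 lies at 2.16 in Akibae over SuCui NO.1 and at -1.94 in Nijisseiki over CuiYu.

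Genes of sorbitol and sugar use moved both ways. Sorbitol is the sugar that pear leaves send to the fruit, and sorbitol dehydrogenase turns it into fructose. Of 114 tested sorbitol, sucrose and starch genes, 11 (9.65%) were higher and 15 (13.2%) lower, against 7.62% and 8.66% over all genes. Their median log2 fold change was -0.22. The higher count was 3 without Akibae replicate 1, 6 without Akibae replicate 2 and 7 without Akibae replicate 3 or SuCui NO.1 replicate 3, and the lower count was 8 without Akibae replicate 1 and 9 without Akibae replicate 2. Sorbitol dehydrogenase gene20262 had 57.4, 19.8 and 85.2 CPM in Akibae, against 774, 298 and 525 CPM in SuCui NO.1, a log2 fold change of -3.30 ± 0.69 (SE, adjusted p = 0.00866). Alpha-glucan phosphorylase (gene22767), which breaks down starch chains, had 17.3, 17.5 and 17.3 CPM in Akibae, against 198, 191 and 104 CPM in SuCui NO.1 (log2 fold change -3.24 ± 0.28, SE, adjusted p = 5.04e-05). Of 4 tested genes of granule-bound starch synthase 1, which makes amylose, 1 was higher and 0 lower. The higher gene had 58.6, 37.3 and 33.8 CPM in Akibae and 1.59, 3.57 and 1.51 CPM in SuCui NO.1 (log2 fold change 4.27 ± 0.38, SE, adjusted p = 5.9e-05). All 4 summed to 785, 535 and 493 CPM in Akibae, against 461, 759 and 340 CPM in SuCui NO.1, so that the ranges overlapped. Gene20262 and gene22767 were chosen after their values were seen.

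Transport genes for sucrose and polyols differed in opposite directions. SUC4 (gene28767, chromosome 8, 4103239 to 4110951), a vacuolar sucrose exporter in other plants, had 85.9, 90.4 and 64.9 CPM in Akibae, against 7.95, 13.5 and 7.17 CPM in SuCui NO.1. Its log2 fold change was 3.07 ± 0.32 (SE, adjusted p = 0.000162). Polyol transporter 5, a name for carriers of sorbitol and related sugars, was lower in 3 of 11 tested genes and higher in 0. All 11 summed to 580.1, 687 and 542 CPM in Akibae, against 698, 826 and 1615 CPM in SuCui NO.1. The gene with the largest fold, gene36166, had 0.0771, 0.0798 and 0.150 CPM in Akibae and 2.18, 15.4 and 8.68 CPM in SuCui NO.1. In Nijisseiki against CuiYu the same gene had a log2 fold change of 3.23, against -6.29 in Akibae over SuCui NO.1, and the difference was -9.52 (adjusted p = 0.0005). Over the whole list of 58 sugar and polyol transporters, 3 (5.17%) were higher and 5 (8.62%) lower, against 7.62% and 8.66% over all genes. The higher count was 1 without Akibae replicate 1.

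The lower calls among ethylene genes each depended on the libraries used. Of 38 tested, 1 (2.63%) was higher and 5 (13.2%) were lower, against 7.62% and 8.66% over all genes. None of the 5 lower genes was called in every fit without 1 library. ACC synthase 1 (gene33278), the limiting step of ethylene production in ripening fruit, had 0, 1.28 and 0.0750 CPM in Akibae, against 44.5, 1.71 and 85.6 CPM in SuCui NO.1. Its adjusted p was 0.0314, and between 0.0607 and 0.109 without Akibae replicates 1 or 3 or SuCui NO.1 replicates 1 or 3. The lower count was 1 without Akibae replicate 1 or 2, 2 without Akibae replicate 3 or SuCui NO.1 replicates 1 or 3, and 3 without SuCui NO.1 replicate 2; the higher count was 4 without Akibae replicate 3 and 2 without SuCui NO.1 replicate 1. A CTR1 gene (gene6333), for a repressor of the ethylene response, had 108, 92.2 and 111 CPM in Akibae, against 52.3, 55.2 and 39.8 CPM in SuCui NO.1 (log2 fold change 1.08 ± 0.16, SE, adjusted p = 0.00145), and was called without any 1 library. The 7 tested genes of the CTR1 name, 1 higher and 1 lower, summed to a mean of 517 CPM in Akibae and 390 CPM in SuCui NO.1.

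Large differences were found in single transcription factors of several families. RAP2-2 (gene9450), an ethylene-responsive factor known for low-oxygen responses in Arabidopsis, had 143, 144 and 150.2 CPM in Akibae, against 8.03, 5.28 and 4.66 CPM in SuCui NO.1. The log2 fold change of gene9450 was 4.60 ± 0.26 (SE, adjusted p = 3.08e-06). The MADS-box gene AGL24 (gene24325) had 21.96, 20.8 and 25.8 CPM in Akibae and 1.51, 1.49 and 0.717 CPM in SuCui NO.1 (log2 fold change 4.20 ± 0.51, SE, adjusted p = 0.000386). MYB86 (gene28822, chromosome 12, 19555377 to 19557278) had 3.55, 3.11 and 7.95 CPM in Akibae, against 0, 0.223 and 0.215 CPM in SuCui NO.1. MYB36 (gene24976), a regulator of Casparian strips in Arabidopsis that was chosen after its values were seen, had 20.3, 18.8 and 16.8 CPM in Akibae and 3.1, 4.68 and 3.44 CPM in SuCui NO.1 (log2 fold change 2.31 ± 0.23, SE, adjusted p = 0.000112). MYB1R1 (gene13235) had no read in Akibae and 2.93, 5.35 and 2.51 CPM in SuCui NO.1, at least 46.6-fold lower in Akibae. All of these were called without any 1 library, and none of their groups overlapped. Summed over all tested genes of a name, most differences were small. The 4 RAP2-2 genes had a mean of 1391 CPM in Akibae and 1568 CPM in SuCui NO.1. The 5 MYB86 genes had 32.9 and 34.4 CPM, and the 7 MYB1R1 genes 73.3 and 62.7 CPM. The 4 AGL24 genes had 44.0 CPM in Akibae and 10.4 CPM in SuCui NO.1.

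By family, 8 of 80 tested MYB factors were higher and 8 lower, and 5 were higher without Akibae replicate 1 and 13 without SuCui NO.1 replicate 2. Among 72 NAC factors, 4 (5.56%) were higher and 7 (9.72%) lower, with 2 higher and 4 lower without Akibae replicate 1 or 2. Among 102 AP2/ERF factors, 10 (9.80%) were higher and 11 (10.8%) lower. The higher ones were 4 without Akibae replicate 1 and 6 without SuCui NO.1 replicate 1, and the lower ones 5 without Akibae replicate 1 or 2, 4 without Akibae replicate 3 or SuCui NO.1 replicate 1 and 7 without SuCui NO.1 replicate 3. Among 66 WRKY factors, 7 (10.6%) were higher and 4 (6.06%) lower. The higher ones were 1 without Akibae replicate 1, 2 without Akibae replicate 2, 3 without SuCui NO.1 replicate 1 and 4 without SuCui NO.1 replicate 2. Leaving out SuCui NO.1 replicate 2 also gave 8 lower.

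Large differences in level were also found in single genes outside the barrier lists. 4-Hydroxyphenylpyruvate dioxygenase (gene2541, chromosome 17, 12684651 to 12686834), which makes the precursor of tocopherol and plastoquinone, had 599.8, 845 and 591 CPM in Akibae, against 9.46, 20 and 16.2 CPM in SuCui NO.1. This gave a log2 fold change of 5.48 ± 0.40 (SE, adjusted p = 1.44e-05). The 3 tested genes of its name summed to a mean of 1555 CPM in Akibae and 786 CPM in SuCui NO.1. A gene named for salutaridine reductase (gene10018, chromosome 6, 13076109 to 13077950), an enzyme of poppy alkaloids and so only a likeness here, had 829.6, 1369 and 765 CPM in Akibae, against 35.7, 103 and 27.8 CPM in SuCui NO.1 (log2 fold change 4.16 ± 0.70, SE, adjusted p = 0.00265). Linoleate 13S-lipoxygenase 2-1 (gene6908, chromosome 7, 1343082 to 1350540), which starts jasmonate and aldehyde synthesis, had 69.5, 118 and 52.8 CPM in Akibae, against 2882, 841 and 595 CPM in SuCui NO.1 (log2 fold change -4.17 ± 0.63, SE, adjusted p = 0.0015). Gene2541, gene10018 and gene6908 were called without any 1 library. A second lipoxygenase gene of that name (gene15180, chromosome 2, 20878611 to 20886704) went the other way, with 4011, 4143 and 1720.4 CPM in Akibae, against 923, 1592 and 445 CPM in SuCui NO.1 (log2 fold change 1.74 ± 0.48, SE, adjusted p = 0.0328). It lost its call without Akibae replicates 1 or 2 or SuCui NO.1 replicates 1 or 3, at an adjusted p of up to 0.103. The 5 tested genes of the name summed to a mean of 3621 CPM in Akibae and 2489 CPM in SuCui NO.1. The glycine-rich RNA-binding protein GRP1A gene (gene34773) had 4512, 4818 and 2703 CPM in Akibae, against 611, 2248 and 1686 CPM in SuCui NO.1, and lost its call of 0.0476 in the fits without the same 4 libraries (adjusted p up to 0.135). MLP-like protein 329 (gene4362) had 6590.3, 6026 and 3765 CPM in Akibae, against 2269, 1844 and 764 CPM in SuCui NO.1, and lost its call of 0.041 without Akibae replicates 1 or 2 or SuCui NO.1 replicates 2 or 3 (adjusted p up to 0.119).

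The most abundant transcripts per length were mostly not called. By the deposited FPKM, metallothionein-like protein type 3 (gene8550), a metal-binding protein, led with a median of 22079.7 in Akibae and 37590.8 in SuCui NO.1, with an adjusted p of 0.557. Acidic endochitinase (gene4809), a defence enzyme, had a median of 8949.91 FPKM in Akibae and 15824.7 FPKM in SuCui NO.1, with an adjusted p of 0.655. Metallothionein-like protein type 2 (gene41142) had 8177.44 FPKM in Akibae and 4071.17 FPKM in SuCui NO.1, with an adjusted p of 0.0688.

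Disease resistance receptors were the largest list. Of 431 tested, 71 (16.5%) were higher and 50 (11.6%) lower, against 7.62% and 8.66% over all genes. Their median log2 fold change was 0.29. The higher count was 43 without Akibae replicate 1 and 45 without SuCui NO.1 replicate 1, and the lower count was 31 without Akibae replicate 1 and 30 without Akibae replicate 2. These genes form families of similar sequences, so their counts are uncertain where copies share reads. The RPP8-like gene38829 (chromosome 17, 13976 to 18442) had 40.9, 46.8 and 43.1 CPM in Akibae and no read in SuCui NO.1, at least 572-fold higher in Akibae. A gene for TMV resistance protein N (gene36662) had no read in Akibae and 11.6, 12.8 and 17.1 CPM in SuCui NO.1, at least 179-fold lower in Akibae. Another gene of that name (gene30107), chosen after its values were seen, had 137, 74.1 and 71.8 CPM in Akibae, against 0.335, 1.86 and 1.72 CPM in SuCui NO.1.

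Defence and stress proteins had calls in both directions. Of 137 tested pathogenesis-related genes, 12 (8.76%) were higher and 11 (8.03%) lower, near the 7.62% and 8.66% over all genes. The higher count was 7 without Akibae replicate 2. The lower one was 4 without Akibae replicate 1, 7 without Akibae replicate 3 and 20 without SuCui NO.1 replicate 2. Major allergen Mal d 1 (gene37652), named for its apple counterpart, had 4.39, 20.5 and 14.3 CPM in Akibae, against 919.5, 157 and 855 CPM in SuCui NO.1 (log2 fold change -5.62 ± 0.88, SE, adjusted p = 0.00178). Of 97 tested heat shock proteins, 11 (11.3%) were higher and 7 (7.22%) lower, against 7.62% and 8.66% over all genes. The counts were 7 higher and 3 lower without Akibae replicate 1, 4 lower without Akibae replicate 2 and 18 higher without SuCui NO.1 replicate 3. The 18.1 kDa class I genes gene3657, gene3658 and gene3659 of chromosome 1 were all higher, and gene3659 had 91.6, 79.4 and 53.6 CPM in Akibae, against 7.70, 14.3 and 16.8 CPM in SuCui NO.1. Dehydroascorbate reductase DHAR2, which renews vitamin C, had gene37082 at 0.308, 0.0798 and 0.0750 CPM in Akibae, against 32.4, 38.9 and 17.7 CPM in SuCui NO.1, while gene163 had 98.6, 92.7 and 99.0 CPM in Akibae and 29.6, 34.4 and 20.9 CPM in SuCui NO.1. Gene37652, gene163 and the 18.1 kDa genes were chosen after their values were seen.

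Some genes were counted in 1 variety only. With a mean of at least 5 CPM in the variety that had reads, 57 genes were counted in Akibae and had no read in SuCui NO.1, and 73 were counted in SuCui NO.1 and had no read in Akibae. A count of 0 cannot separate a silent gene from a missing or too divergent one. Of the 57 genes, 15 had no read in CuiYu and 2 none in Nijisseiki. Of the 73 genes, 19 had no read in CuiYu and 28 none in Nijisseiki. ZINC INDUCED FACILITATOR-LIKE 1 (gene7227, chromosome 2, 18018654 to 18024772), a transporter of the vacuole and plasma membrane in Arabidopsis, had no read in Akibae and 43.3, 17.4 and 86.2 CPM in SuCui NO.1, at least 634-fold lower in Akibae, or 393-fold without SuCui NO.1 replicate 3. CAMTA 2 (gene22570), a calmodulin-binding factor, had 45.6, 28.5 and 29.8 CPM in Akibae and no read in SuCui NO.1, at least 454-fold higher in Akibae. The 3 tested genes of the CAMTA 2 name summed to a mean of 329 CPM in Akibae and 305 CPM in SuCui NO.1. For the 2 tested ZINC INDUCED FACILITATOR-LIKE 1 genes the sums were 169 CPM in Akibae and 265 CPM in SuCui NO.1. Germacrene D synthase (gene31449), which makes a volatile sesquiterpene, had no read in Akibae and 24.4, 24.2 and 8.18 CPM in SuCui NO.1, and none in Nijisseiki or CuiYu.

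For many such genes another gene of the same name was counted. Of the 57 genes counted in Akibae, 42 have a protein name, 39 of these share it with another tested gene, and in 15 another copy was called in the opposite direction. Of the 47 named genes counted in SuCui NO.1, 39 share their name, and in 19 another copy was called in the opposite direction. The summed level of the name lay within 1.5-fold between the varieties for 26 of the 42 and 20 of the 47. Of 8879 protein names among all tested genes, 5352 were carried by 2 or more genes and 328 had calls in both directions. The counts of copies were not made over all named genes, so they do not set the genes counted in 1 variety apart. SAL1 phosphatase, an enzyme of stress signalling in Arabidopsis, had gene30762 at 35.9, 37.2 and 35.6 CPM in Akibae and at no read in SuCui NO.1, while gene27794 had 5.16, 4.71 and 6.08 CPM in Akibae and 53.1, 51.7 and 45.4 CPM in SuCui NO.1. Temperature-induced lipocalin-1, a lipid-binding protein of membranes, had gene16128 at no read in Akibae and at 26.4, 108 and 426 CPM in SuCui NO.1, while gene16126, which lies nearby on chromosome 2, had 94.5, 93.2 and 141 CPM in Akibae and 0, 0.818 and 3.51 CPM in SuCui NO.1. Ribosomal protein L3 had gene29744 at 0.925, 0.957 and 1.95 CPM in Akibae, against 144, 248 and 339 CPM in SuCui NO.1, and gene33334 at 893, 1125 and 1184 CPM in Akibae, against 245, 517 and 635 CPM in SuCui NO.1. Whether reads moved between copies was not tested, and the pairs shown were chosen after their values were seen.

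**Figure D5:**
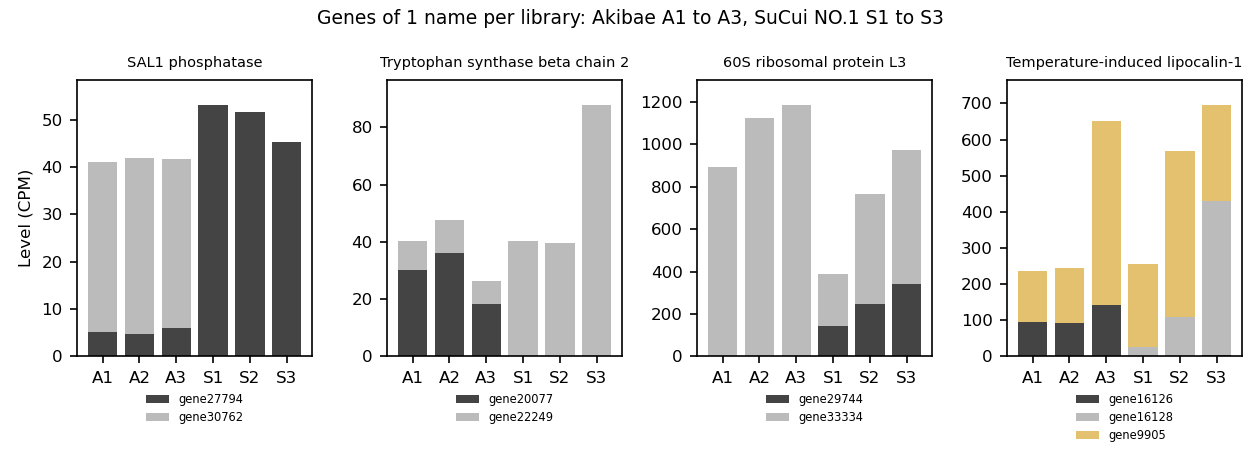
Level in CPM of the genes that carry the same protein name, stacked per library, Akibae 1 to 3 (A1 to A3) left and SuCui NO.1 1 to 3 (S1 to S3) right, for 4 names. In each name at least 1 gene with reads in a variety is at or near 0 in the other, as for SAL1 phosphatase gene30762 at 35.6 to 37.2 CPM in Akibae and no read in SuCui NO.1.

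Called genes were spread over all 17 numbered chromosomes but not evenly. The share called ran from 9.02% on chromosome 16 to 23.0% on chromosome 17 and 25.9% on chromosome 12. In Nijisseiki against CuiYu the same chromosomes had 12.4%, 21.2% and 17.7%. Runs of at least 4 neighbouring tested genes called in the same direction numbered 24 for higher and 36 for lower genes. The longest, 10 genes higher in Akibae, lay on chromosome 2 between 3133488 and 3228975, and the next, 9 genes higher, on chromosome 4 between 2029218 and 2165093. Some protein names of these runs recurred in runs called lower. Phosphatase SAC3 and translation factor 3 subunit K did so on chromosome 2 between 4807260 and 4848212. A J domain-containing protein did so on chromosome 4 between 1537702 and 1563147. Whether reads moved between such copies was not tested. Among 458 windows of 50 tested genes the median was 7 called genes. The highest count, 28, was in a window of chromosome 11 from 20752212 to 21679233, which had 30 in Nijisseiki against CuiYu. The next were 24 called genes on chromosome 11 from 18519157 to 20749464 and 24 on chromosome 17 from 20761773 to 21103558, with 14 and 21 in Nijisseiki against CuiYu. A window of chromosome 12 from 652184 to 1183011 had 23, and 4 in Nijisseiki against CuiYu.

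Nijisseiki, picked 135 days after full bloom, and CuiYu, picked at 105 days, form another later and earlier pair that shares no library with Akibae and SuCui NO.1. In it 4050 genes (15.4%) were called, 2112 higher (8.03%) and 1938 lower (7.37%) in Nijisseiki. Of the 2004 genes higher in Akibae, 500 (24.95%) were also higher in Nijisseiki and 134 were lower there; the 500 were 23.7% of the genes higher in Nijisseiki. Of the 2278 genes lower in Akibae, 567 (24.9%) were also lower in Nijisseiki and 169 were higher; the 567 were 29.3% of the genes lower in Nijisseiki. The difference between both contrasts was called for 3040 genes (11.6%). Among the lists, 8 of the 9 lower cutin genes, 6 of the 16 lower wax genes and 8 of the 18 called clock genes were called in the same direction in Nijisseiki, against 0 of the 25 called triterpene genes.

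Some barrier genes differed more between Akibae and SuCui NO.1 than between Nijisseiki and CuiYu. The difference of log2 fold changes was -6.94 for KCS6 (gene8119, adjusted p = 0.0184), -6.07 for KCS10 (gene1422, 0.0207), -5.53 for HOTHEAD (gene25700, 0.0203) and -7.09 for CYP86A22 (gene23333, 0.00345). The Nijisseiki libraries varied widely in these genes. Their Nijisseiki mean and SD were 20.05 and 26.6 CPM for KCS6 and 8.79 and 10.7 CPM for KCS10. They were 21.2 and 19.7 CPM for HOTHEAD and 28.03 and 20.7 CPM for CYP86A22. How far the differences rest on single Nijisseiki libraries was not tested. CYP86A22 was lower in Nijisseiki too, with a log2 fold change of -3.32 ± 0.53 (SE, adjusted p = 0.00222). For SHINE 2 (gene7700), the lipid transfer protein gene38249 and the feruloyl transferase gene3755 the difference did not pass the test, at -1.84 (adjusted p = 0.318), -2.03 (0.303) and 1.59 (0.588). SUC4 (gene28767) differed by 2.92 (0.00213), RAP2-2 (gene9450) by 4.82 (1.65e-05) and 4-hydroxyphenylpyruvate dioxygenase (gene2541) by 5.07 (0.000143), the last with means of 811 CPM in Nijisseiki and 612 CPM in CuiYu.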

How the data were processed

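RNA from fruit skin, extracted with CTAB, was made into NEB Next Ultra libraries, per the labels' protocols. The authors deposited raw read counts and FPKM values per gene, per the file headers, with gene coordinates and Swiss-Prot names. Aligner, genome build, annotation and strand setting are not stated in these sources. Counts were used for every test, and the deposited FPKM only to rank levels per gene length. All value columns were matched to a sample (0 were not).

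A fit of all 12 libraries by variety was made in edgeR 4.0.16 (R 4.3.3, limma 3.58.1) with TMM scaling, the filterByExpr filter and the quasi-likelihood test, and p-values were adjusted by Benjamini-Hochberg over 26307 genes with a threshold of 0.05. The fold changes are Akibae over SuCui NO.1. The procedure was tested on simulated data. DESeq2 1.42.0 and other settings were alternatives. Ratios carry 95% counting intervals, which cover counting error only; where a variety had no read, 3 reads over its libraries gave the bound. The labels call the libraries biological replicates without saying which trees they came from, so p-values measure the spread between these samples.

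Genes were named by rule: the 6 largest folds and the 6 largest differences in level in each direction, the 3 largest folds per direction in the wax, cutin, suberin and laccase lists, the largest fold per direction in each other list, and the most abundant genes by FPKM. The 40 gene lists, built from protein names, and the named genes were chosen with earlier results of these data known.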

Additional observations from a re-analysis of the deposited data

How the results depend on the processing

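No called gene changed its sign in any alternative run. The 4282 calls compare with 2897 in a fit of the 6 libraries alone (2659 shared) and 6093 with DESeq2 (4250 shared). With the 6 libraries alone, 1304 genes were higher, 2 clock genes, 1 wax gene, 1 cutin gene and 3 triterpene genes were higher, and 11 triterpene genes were lower. With DESeq2, 2 wax, 1 cutin, 5 photosystem and 2 suberin genes were higher and 37 photosystem genes lower. With no filter on low counts 3 clock genes were higher, as with a log2 fold change of at least 1; with a mean of at least 1 CPM 0 suberin genes were higher. Leaving out 1 of the 6 libraries gave 1181 to 1856 genes higher and 1259 to 2286 lower. Of clock genes, 1 to 4 were higher and 7 to 13 lower, and 0 to 1 wax and 0 cutin genes were higher. Of photosystem genes, 2 to 5 were higher and 9 to 26 lower, and of suberin genes 1 to 7 were higher and 0 to 2 lower. Of triterpene genes, 3 to 10 were higher and 6 to 20 lower. Nijisseiki replicate 1 is outside the comparison but enters the fit. Without it, 2463 genes were higher and 2999 lower. In that run 14 clock and 33 photosystem genes were lower, and 1 wax and 1 cutin gene higher. The genes counted in 1 variety only numbered 169 for Akibae and 219 for SuCui NO.1 at 1 CPM, and 30 and 23 at 10 CPM. Of the 95 named genes that were called, 67 were called without any 1 of the 6 libraries. The cause was not tested. The deviations of same-numbered libraries had r of 0.0291, -0.119 and -0.218, against -0.115 to 0.226 for the other pairs. Deviations from a mean of 3 libraries are tied to each other, so these values cannot show whether a number pairs the samples. With the replicate block 4047 genes were called, 3712 of them shared, and 3 clock, 1 wax and 5 photosystem genes were higher. With 3 libraries a variety, genes near the floor of 0.0772 CPM in Akibae and 0.0763 CPM in SuCui NO.1 cannot be ranked, and variety and picking day cannot be told apart.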

Other observations

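Cell division, ribosomal protein and UDP-glycosyltransferase genes were counted against the 16.3% called over all genes. Of 128 tested cell division genes, 5 were higher and 6 lower in Akibae, 8.59% in all; the higher count was 2 without Akibae replicate 1 or 2 or SuCui NO.1 replicate 1, 3 without SuCui NO.1 replicate 3 and 10 without SuCui NO.1 replicate 2. Of 297 tested ribosomal protein genes, 13 were higher and 10 lower, 7.74% in all, with 29 higher without SuCui NO.1 replicate 3 and 5 or 6 lower without Akibae replicate 1 or 2. Of 110 tested UDP-glycosyltransferases, which attach sugars to phenolics and hormones, 5 were higher and 19 (17.3%) lower, 21.8% in all, with 10 lower without Akibae replicate 1 and 3 higher without Akibae replicate 2 or SuCui NO.1 replicate 1. The aquaporin NIP3-1 (gene11399) had 0.0771, 0 and 0 CPM in Akibae, against 29.6, 28.6 and 4.59 CPM in SuCui NO.1, a ratio of SuCui NO.1 to Akibae of 793 with a counting interval of 142 to 31348. CASP-like protein 2A1 (gene15739), of the family that shapes Casparian strips, had no read in Akibae and 4.85, 6.02 and 4.38 CPM in SuCui NO.1, at least 65.8-fold lower in Akibae.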
